A study of Mus musculus with 10 samples.

Results

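The regions described here are stretches of H3K27me3 that were called near gene starts in mouse duodenal organoids grown in enterocyte medium, and that overlapped no region called in stem cell medium. Members were taken from the authors' broad H3K27me3 regions in the enterocyte medium: each was shorter than 10000 bp, shared not a single base with a broad or narrow region of the stem cell medium, and lay within 5000 bp of the transcription start of a RefSeq transcript. Of 6094 broad regions in enterocyte medium, and 11103 in both media, 445 met this rule, and 481 of the 24016 genes in the transcription table (2%) had a start within that distance. The regions were thus chosen by measured values, the H3K27me3 calls and their length in both media, together with distance to a start. The rule used only the ChIP-seq calls and the gene starts, so the lengths, scores and gaps of the regions are a description, while the transcription values of the genes played no part in the choice.

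Organoids from mouse duodenum were grown in Matrigel in WENRC, a stem cell medium with EGF, Noggin, R-spondin, Wnt3A and the Wnt pathway agonist CHIR-99021, or were moved to ENRI, an enterocyte differentiation medium that omits Wnt3A and CHIR-99021 and adds IWP-2, which blocks the secretion of Wnt. EGF, Noggin and R-spondin were thus common to both. Nascent transcription was measured by GRO-seq, which sequences the RNA extended by engaged polymerases in isolated nuclei, in 2 libraries per medium, numbered here by the batch given in the authors' header; the titles name mouse 1 and mouse 2 in each medium. H3K27me3 was mapped in 1 ChIP-seq library per medium against input DNA of the same medium. No age, strain or sex of the mice is used here, and an organoid line stands for epithelium without its surrounding tissue.

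H3K27me3 is the trimethyl mark on a lysine of histone H3 that Polycomb repressive complex PRC2 writes. It is typically found at CpG-rich promoters of genes that are silent or weakly transcribed, developmental regulators above all, and it is read by the PRC1 complex. In the intestine, crypt stem cells depend on Wnt signals, and enterocytes arise as cells leave the crypt and lose those signals.

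Recovered GRO-seq reads, summed over all 33022 transcripts, were 25839484 and 9245915 for WENRC in batches 1 and 2, and 29128101 and 15787828 for ENRI. Reads in overlapping transcripts can count more than once in these sums. With 1 transcript per gene, the sums were 16302292 and 5868922 for WENRC and 18368188 and 10245627 for ENRI. Batch 1 was thus the deeper. Log2 levels correlated across genes at r = 0.949 between the WENRC libraries and r = 0.874 between the ENRI libraries. All 13 epithelial markers had at least 0.5 RPKM (reads per kb of transcript, scaled to the total counted) in all 4 libraries. Under 0.1 RPKM in all 4 were 10 of 14 mesenchymal, 12 of 18 immune and 11 of 16 endothelial and neural markers. Nkg7, an immune marker, was at 0, whereas Cd14, Cd68 and Fcer1g of that list had at least 0.5 RPKM in all 4. So did Acta2 and Tagln of the mesenchymal list and S100b of the endothelial and neural list. The summed level of the immune list was 19.3 and 22.0 RPKM in WENRC against 11.8 and 8.63 in ENRI; its part in the results was not tested. The summed level of 46 enterocyte genes was 138 and 85.2 RPKM in WENRC against 849 and 1334 in ENRI, and that of 33 stem cell genes and Wnt targets was 113 and 144 against 65.4 and 29.8. In these bulk libraries, fewer cells of a type and less RNA per cell cannot be told apart.

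The upstream sequences of a few members show the base composition next to their starts. Thbs4, a matrix glycoprotein of the thrombospondin family, and Ccdc88a, a regulator of actin and cell migration, were in the set by score and carry the mark over a silent or barely transcribed start. Ascl2, Tgif2, Axin2 and Fgfr2 were added after their values and sequences were seen, as members that were lower in both ENRI libraries; Axin2 has its start outside the region. Each line gives the 250 bases upstream of the start, 5′ to 3′ on the gene's strand, from RefSeq on build GRCm38.p6, with CG dinucleotides in capitals. The H3K27me3 regions themselves are in build mm9, and no coordinate was carried from one build to the other.
Thbs4: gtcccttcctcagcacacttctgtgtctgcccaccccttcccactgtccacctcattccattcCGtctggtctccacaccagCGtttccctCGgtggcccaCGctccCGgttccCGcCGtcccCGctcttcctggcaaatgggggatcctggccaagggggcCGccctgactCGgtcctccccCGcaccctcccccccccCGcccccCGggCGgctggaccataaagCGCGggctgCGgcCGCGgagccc
Ccdc88a: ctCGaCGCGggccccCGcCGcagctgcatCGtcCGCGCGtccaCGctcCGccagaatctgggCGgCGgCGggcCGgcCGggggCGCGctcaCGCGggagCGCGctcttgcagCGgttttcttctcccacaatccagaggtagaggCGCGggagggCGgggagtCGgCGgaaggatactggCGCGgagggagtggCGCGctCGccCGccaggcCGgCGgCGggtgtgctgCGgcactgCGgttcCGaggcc
Ascl2: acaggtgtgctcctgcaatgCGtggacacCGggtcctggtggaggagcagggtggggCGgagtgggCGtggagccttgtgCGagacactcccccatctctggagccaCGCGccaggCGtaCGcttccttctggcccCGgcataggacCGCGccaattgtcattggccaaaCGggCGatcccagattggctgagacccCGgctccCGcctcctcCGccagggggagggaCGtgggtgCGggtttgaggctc
Tgif2: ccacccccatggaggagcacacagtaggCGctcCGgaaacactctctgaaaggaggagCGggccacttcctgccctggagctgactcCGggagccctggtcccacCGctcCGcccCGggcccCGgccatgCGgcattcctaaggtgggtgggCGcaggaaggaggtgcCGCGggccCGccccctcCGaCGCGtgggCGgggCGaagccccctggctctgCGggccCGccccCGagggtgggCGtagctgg
Axin2: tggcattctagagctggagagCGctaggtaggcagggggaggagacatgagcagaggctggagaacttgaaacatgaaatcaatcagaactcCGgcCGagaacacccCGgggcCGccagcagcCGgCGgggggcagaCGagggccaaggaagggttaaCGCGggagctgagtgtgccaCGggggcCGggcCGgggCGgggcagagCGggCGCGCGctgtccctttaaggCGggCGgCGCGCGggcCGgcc
Fgfr2: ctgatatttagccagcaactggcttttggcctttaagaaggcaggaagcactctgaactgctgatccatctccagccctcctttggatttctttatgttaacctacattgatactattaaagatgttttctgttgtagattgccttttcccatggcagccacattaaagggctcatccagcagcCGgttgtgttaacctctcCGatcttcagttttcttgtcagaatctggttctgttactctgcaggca
The Thbs4 sequence (minus strand, chr13:92794819-92795068) held 19 CG dinucleotides at 70.8% G and C, and the Ccdc88a sequence (plus strand, chr11:29373408-29373657) held 40 at 76.0%. The counts were 19 in Ascl2 (minus strand, chr7:142969265-142969514), 22 in Tgif2 (plus strand, chr2:156839757-156840006) and 24 in Axin2 (plus strand, chr11:108920099-108920348). Fgfr2 (minus strand, chr7:130266809-130267058) held only 2, at 44.0% G and C. Relative to the number its base composition would give, CG was present at 1.12 in Ccdc88a, 0.86 in Axin2 and 0.17 in Fgfr2. CTTTGA, the core recognised by TCF/LEF factors, was searched on both strands and occurred in none of the 6 sequences. Of the 17898 genes of the series with a listed promoter, 14.8% have it in a window of the same length at any of their promoters. Each of the 6 genes had a single listed promoter, so the 14.8% is not a share of single windows. Promoters could be matched for 363 of the 481 genes (75.5%), below the 80% needed to describe the set, so a comparison of CG content over all members is void. Over the matched genes alone, the median of that CG ratio was 0.43 for members beside 0.54 for the 74.5% of all genes that matched. The CG-rich sequences shown thus do not stand for the matched members. For matched genes transcribed enough to enter the tests below, the median was 0.728 in members and 0.731 in all. For matched genes with a mean under 0.1 RPKM, it was 0.294 in members and 0.246 in all. A lower ratio than in other genes of like level is thus not shown, and the cause of the lower median was not tested.

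The regions were short and lay close to the calling threshold. Their median length was 1000 bp, and 261 of 445 (58.7%) had exactly the 1000 bp of the authors' calling window; the longest, at the start of Slc24a1, a sodium, calcium and potassium exchanger, spanned 5975 bp. The deposited score, the number of ChIP tags in the best window, had a median of 35 and ran from 32, the lowest that the authors' false discovery rate allowed in ENRI, to 58; 145 regions scored 32 or 33, and 92 scored 40 or more. The fold over input was 4.81 in the median, with 264 regions under 5 where 4 was required. The largest, 48.23 at Fam196a (picked after its value was seen), came from 48.2 scaled ChIP tags over 1 input tag. A narrow ENRI region overlapped 405 of the 445 (91.0%).

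**Figure D1:**
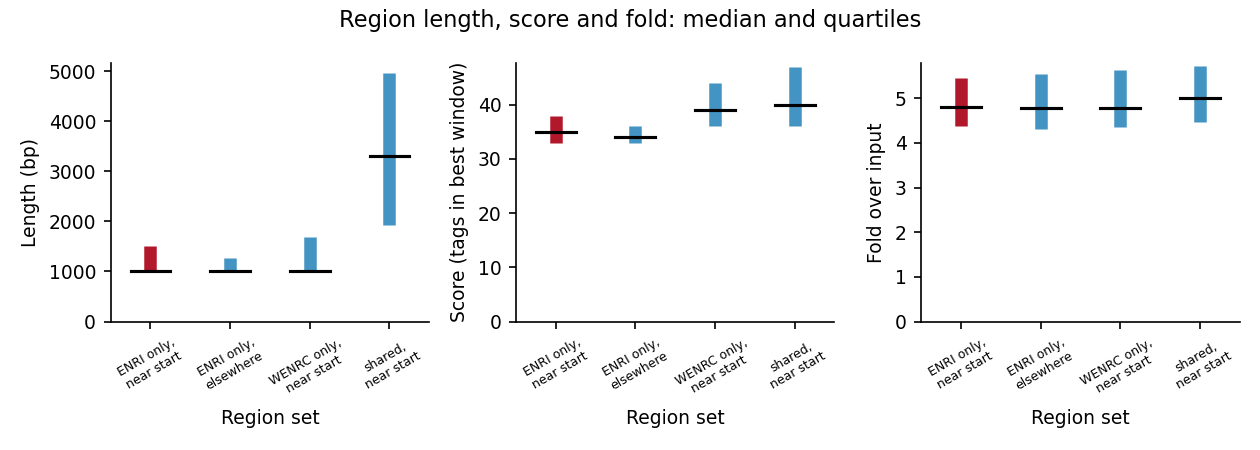
Median (black line) and quartiles (coloured bar) of region length in bp, score in tags of the best window, and fold over input, for 4 sets of broad regions under 10000 bp. Regions called only in ENRI near starts have a median length of 1000 bp and score of 35. Shared regions, which overlap a broad WENRC region, have 3302 bp and 40.

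Short regions near starts that overlapped a broad WENRC region, 997 in all and called shared here, were longer, at a median of 3302 bp. Their median score was 40 and their median fold 5.01. Clear of the broad WENRC list were 792 short ENRI regions near starts, of which 445 were clear of both lists. The rest of the 792 overlapped only a narrow WENRC region and were in neither set. The 363 regions called only in WENRC near starts resembled the ENRI set in length (median 1000 bp) and fold (4.79), with a median score of 39. Scores of the 2 media are not on the same depth: the threshold was 32 tags in ENRI, from 29.8M tags, and 34 in WENRC, from 31.4M. A start lay inside the region in 116 of 445 cases (26.1%), in 121 of 363 (33.3%) of the WENRC-only regions and in 749 of 997 (75.1%) of the shared ones. With 1 ChIP-seq library per medium, presence in ENRI and absence in WENRC has no replicate check, and the WENRC tags inside these regions were not analysed here, so a region without a WENRC call may still hold the mark below the threshold.

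Regions called in WENRC were often near. The gap from a member to the nearest WENRC region had a median of 8744 bp and ranged from 6 bp, near Pid1, to 2625643 bp; 77 members had a WENRC region less than 1000 bp away and 228 (51.2%) less than 10000 bp away. At Ascl2 a WENRC region began 591 bp from the ENRI region, and at Csrnp1 34 bp away. At Axin2 the nearest lay 200071 bp away, at Cdk6 324863 bp and at Mnx1 215334 bp. Of the 5713 short ENRI regions, 3088 (54.1%) overlapped no WENRC region, and 2643 of those lay farther than 5000 bp from a start, with a median score of 34.

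**Figure D2:**
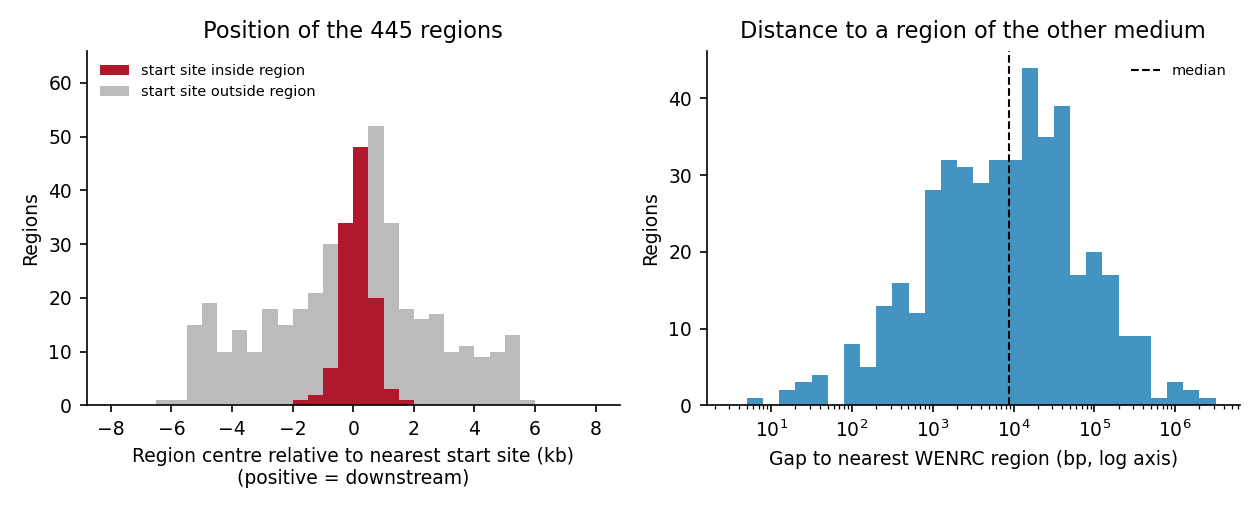
Left, number of regions by the distance in kb from the nearest start site to the region's centre, positive downstream, with regions containing the start in red; 239 centres lie downstream and 206 upstream. Right, number of regions by the gap in bp to the nearest region called in WENRC, on a log axis, with the median of 8744 bp as a dashed line.

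Members sat on both sides of the start, with 239 centres downstream and 206 upstream, and 293 (65.8%) overlapped the body of a gene. Most (409) had 1 gene in reach, 36 had more, and Ccdc33 and Kcnj1 each had 2 regions. At the limit of distance, the regions of Zfp317 and Zfp507 lay just inside, at 4973 and 4953 bp, and those of Tmem52 and Runx1 just outside, at 5026 and 5051 bp. No region of 10000 bp or more was free of WENRC overlap near a start, so the limit on length removed none.

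The 12 regions with the highest scores lay at genes of unlike kinds, some scarcely transcribed and some transcribed in both media. Thbs4 (score 56, chr13:93563020-93568639) had at most 0.0234 RPKM in any library, and Cdh3, which encodes P-cadherin (score 55, chr8:109031192-109036561), at most 0.0716. Ccdc88a (score 49, chr11:29273911-29275362) had between 0.0658 and 0.0950 RPKM with the media overlapping. Plcb2, a phospholipase C, and the apolipoprotein gene Apoa5 were also below 0.3 RPKM in every library.

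Transcribed genes among the 12 were lower in ENRI in most cases. Cnn3, an actin-binding calponin, had 1.73 and 2.60 RPKM in WENRC against 0.997 and 0.334 in ENRI (score 53, 90 bp from the start). Sema4c, a semaphorin, had 0.846 and 1.12 against 0.539 and 0.0780, and Sh3bp4, an adaptor in endocytosis, 0.743 and 0.947 against 0.584 and 0.119. Both ENRI libraries lay below both WENRC libraries in all 3 genes, as in 49.7% of all tested genes. Cacnb3, a calcium channel subunit, and Zmynd11, a reader of histone methylation, were lower by 0.43 ± 0.15 and 0.34 ± 0.14 (SE) on the log2 scale. Epha4, an ephrin receptor, differed between batches: 0.512 and 0.824 RPKM in WENRC against 1.13 and 0.0809 in ENRI.

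Most genes of the regions were nearly silent in both media. A mean below 0.1 RPKM was found for 263 of 481 (54.7%), against 38.8% of all genes, and 34 had no read in any library. The median level was 0.0660 RPKM in WENRC and 0.0542 in ENRI, where all genes had 0.397 and 0.296. Only 68 members reached a mean of 1 RPKM, and 137 (28.5%) had at least 0.5 RPKM in at least 2 libraries and were tested, against 48.3% of all genes. Of 14 microRNA genes in reach, 9 had no read. Genes of the WENRC-only regions were alike in this, with 54.2% below 0.1 RPKM, as were those of the shared regions, with 63.6%.

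**Figure D3:**
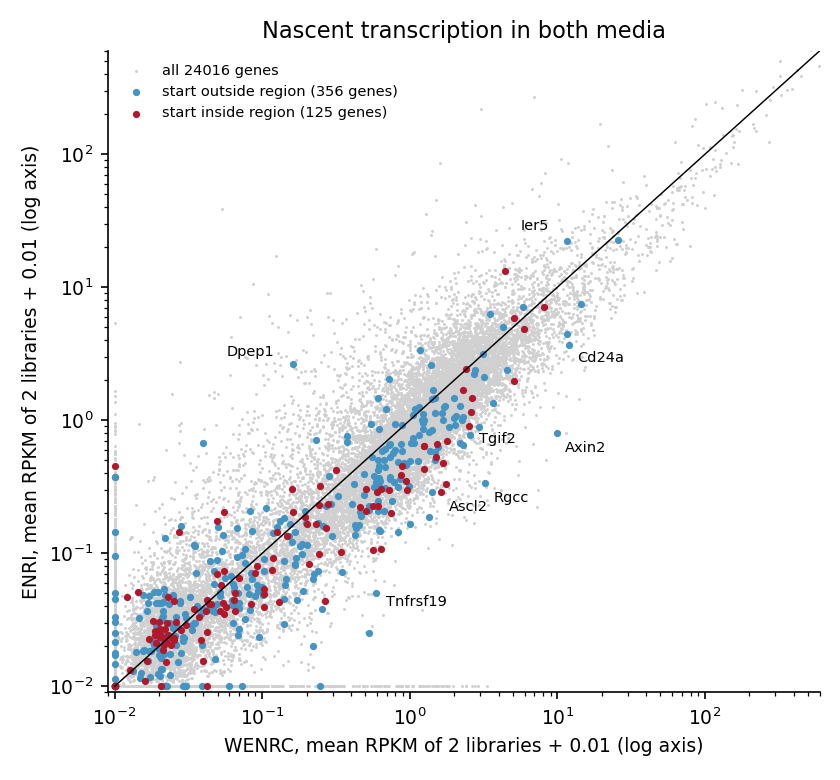
Mean GRO-seq level of the 2 libraries per medium (RPKM + 0.01, log axes) for all 24016 genes in grey and the 481 genes near an ENRI-only region in colour, red where the start lies inside the region; the line marks equal levels. Many members sit at the bottom left, and transcribed members such as Axin2, Rgcc and Ascl2 lie below the line, with Dpep1 above it.

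Among the transcribed members, levels were mostly lower in enterocyte medium. The median log2 change (ENRI minus WENRC, of RPKM + 0.5) over the 137 tested members was -0.51, beside -0.21 over all 11602 tested genes, and 115 members (83.9%) were below 0, beside 65.7% of all. Centred on the median of each library, the medians were -0.36 and -0.06 and the share below 0 was 78.8% beside 54.9%; with quantile normalization they were -0.27 and -0.04, and 71.5% beside 53.9%. The median of the members was -0.27 in batch 1 and -0.76 in batch 2, where all tested genes had -0.16 and -0.24. Both ENRI libraries lay below both WENRC libraries in 91 members (66.4%; 49.7% of all tested genes) and above them in 14 (10.2%; 23% of all). The batches had opposite signs in 24 members.

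No member passed limma at a Benjamini-Hochberg adjusted p of 0.05 in either direction, where 0.0862% of tested genes were called lower and 0.0603% higher. The lowest limma adjusted p was 0.0536, for Axin2. One under 0.06 was found for 23 members (16.8%, beside 10.8% of all tested genes), of which 19 were lower in ENRI. At an unadjusted p under 0.05, 59 members were lower (26.9% of all tested genes) and 7 higher (12%). edgeR's quasi-likelihood test on the recovered reads with the batch as a block called 12 members lower (8.76%; 2.72% of all tested genes) and 5 higher (3.65%; 5.32% of all). Without the block it called 12 lower (2.84% of all) and 3 higher (5.6% of all), and DESeq2 called 31 lower (8.89% of all) and 11 higher (14.7% of all). In the authors' deposited table, 44 of the 481 genes had an FDR under 0.05 and were lower in ENRI (9.15%; 3.06% of all genes) and 12 were higher (2.49%; 5.65% of all). With 2 libraries per medium, leaving out the ENRI library of batch 1 turned the limma count of lower members to 87 (34.3% of all tested genes), leaving out that of batch 2 turned it to 14 (3.33% of all), and leaving out either WENRC library left 0, as over all genes.

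The median change is given by position of the start. Members with the start inside the region (125 genes, 30 tested) had a median log2 change of -0.80, with 28 of 30 below 0. Those with the start outside but within 1000 bp (127, 41 tested) had -0.61, with 34 below 0, and those farther away, up to 5000 bp, (229, 66 tested) had -0.34, with 53 below 0. edgeR with the block called 5 lower and 0 higher of the first, 6 and 2 of the next, and 1 and 3 of the farthest. Over all tested genes the shares were 2.72% lower and 5.32% higher; in the farthest group they were 1.52% and 4.55%. Members at least 10000 bp from any WENRC region (81 tested) had a median of -0.63, against -0.35 for the 56 with one nearer. Regions scoring 40 or more had a median of -0.62 in 38 tested genes, and those scoring 32 or 33 had -0.37 in 33. These differences between subsets were not tested.

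**Figure D4:**
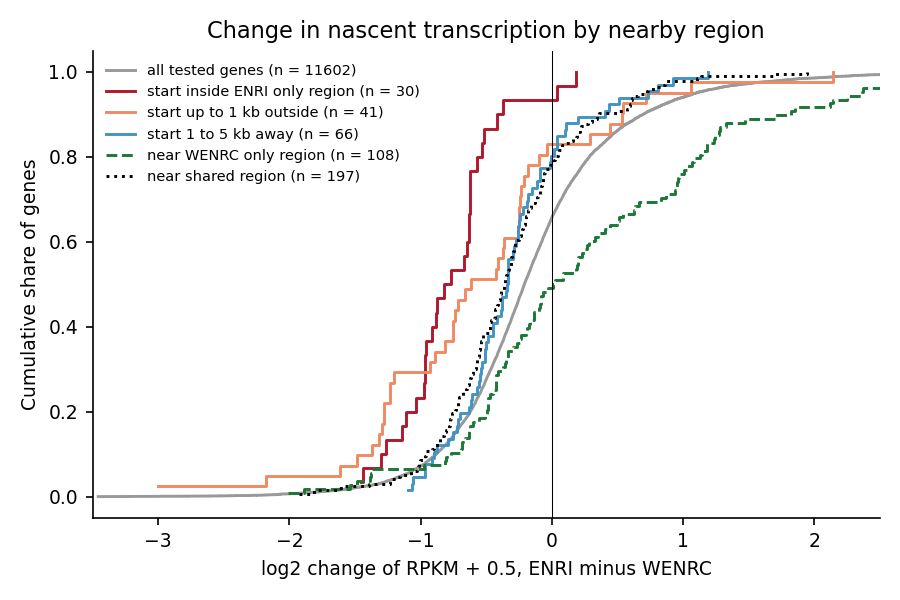
Cumulative share of tested genes by log2 change (RPKM + 0.5, ENRI minus WENRC) for members by distance of the start from the region, for genes near WENRC-only and shared regions and for all tested genes. The medians are -0.80, -0.61 and -0.34 from inside to farthest, 0.02 near WENRC-only regions, -0.36 near shared regions and -0.21 over all tested genes.

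Genes near WENRC-only regions, 108 of 404 tested, had a median log2 change of 0.02, and edgeR with the block called 3 lower (2.78%; 2.72% of all tested genes) and 25 higher (23.1%; 5.32% of all). Genes near shared regions, 197 of 1125 tested, had a median of -0.36, with 9 lower (4.57%) and 6 higher (3.05%) by the same test. Of these 197, 155 (78.7%) were below 0, and in 121 (61.4%) both ENRI libraries lay below both WENRC libraries. Members of the ENRI-only set had shares of 83.9% and 66.4%, so a lean to lower levels was not particular to them. Near WENRC-only regions the shares were 49.1% and 37.0%. The sets were compared side by side without a test between them, and 31 genes lay near both an ENRI-only and a WENRC-only region.

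Genes of the Wnt-dependent stem cell programme were among the members. Of 33 listed stem cell genes and Wnt targets, 7 (21.2%) had an ENRI-only region in reach, beside 2% of all genes: Ascl2, Axin2, Cdk6, Ephb2, Mex3a, Tcf7 and Tnfrsf19. The 6 tested had a median log2 change of -1.17, and in all 6 both ENRI libraries lay below both WENRC libraries, as in 49.7% of all tested genes. None passed limma, and edgeR with the block called 1 of the 6 lower, beside 2.72% of all tested genes. The authors' deposited table gave 4 of the 7 an FDR under 0.05 with lower levels in ENRI, beside 3.06% of all genes. The other 26 genes of the list, with no such region in reach, had a median of -1.32 over 21 tested genes, with 20 below 0. Of those 21, edgeR with the block called 10 lower. The deposited table gave 14 of the 26 an FDR under 0.05 with lower levels in ENRI. The lower levels of the list were thus not limited to genes with a region.

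Axin2, a scaffold of the complex that degrades beta-catenin and a classical Wnt target, had 7.96 and 11.9 RPKM in the WENRC libraries of batches 1 and 2, and 0.959 and 0.620 in ENRI. Levels in stem cell medium were thus 12.6-fold higher in the mean, in both batches, and the log2 change was -3.0 ± 0.27 (SE; limma adjusted p = 0.0536, edgeR with the block 0.0186). Its region (chr11:108782639-108786912, score 35, 5.09-fold over input) lay inside the gene, starting 976 bp downstream of the start whose upstream CG-rich sequence is shown above.

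Ascl2, the basic helix-loop-helix factor of crypt stem cells, had 1.44 and 1.77 RPKM in WENRC against 0.197 and 0.363 in ENRI. The groups did not overlap, and the log2 change was -1.44 ± 0.17 (limma adjusted p = 0.0560, edgeR with the block 0.0531). The region, 4456 bp long (chr7:150152617-150157073, score 47, 6.18-fold over input), covered the whole 2442 bp transcript and its start.

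Ephb2, the ephrin receptor that positions cells along the crypt, had 2.54 and 2.55 RPKM in WENRC against 0.970 and 0.571 in ENRI, a log2 change of -1.28 ± 0.19. Its region (chr4:136392429-136393684) lay 503 bp upstream of the start. Tcf7, a TCF/LEF factor through which beta-catenin acts, had 0.829 and 0.883 against 0.433 and 0.320, with the region over its start. Tnfrsf19, a receptor of crypt stem cells also called Troy, had 0.422 and 0.736 against 0.0509 and 0.0298 RPKM, below the limit for testing; the authors' deposited table gave it a log2 fold change of -3.57. All 3 were lower in both batches.

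Mex3a, an RNA-binding protein of slowly cycling crypt cells, and Cdk6, a kinase of the G1 phase, were lower mainly in batch 2. Mex3a had 1.31 and 1.71 RPKM in WENRC against 1.03 and 0.275 in ENRI, and Cdk6 had 1.99 and 2.51 against 1.73 and 0.265. Adjusted p-values were 0.154 and 0.214 with limma and 0.275 and 0.346 with DESeq2. Ccnd1, cyclin D1, which pairs with Cdk6, had a 4961 bp region over its start and opposite batches: 8.13 and 8.08 RPKM in WENRC, and 12.5 and 1.75 in ENRI.

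**Figure D5:**
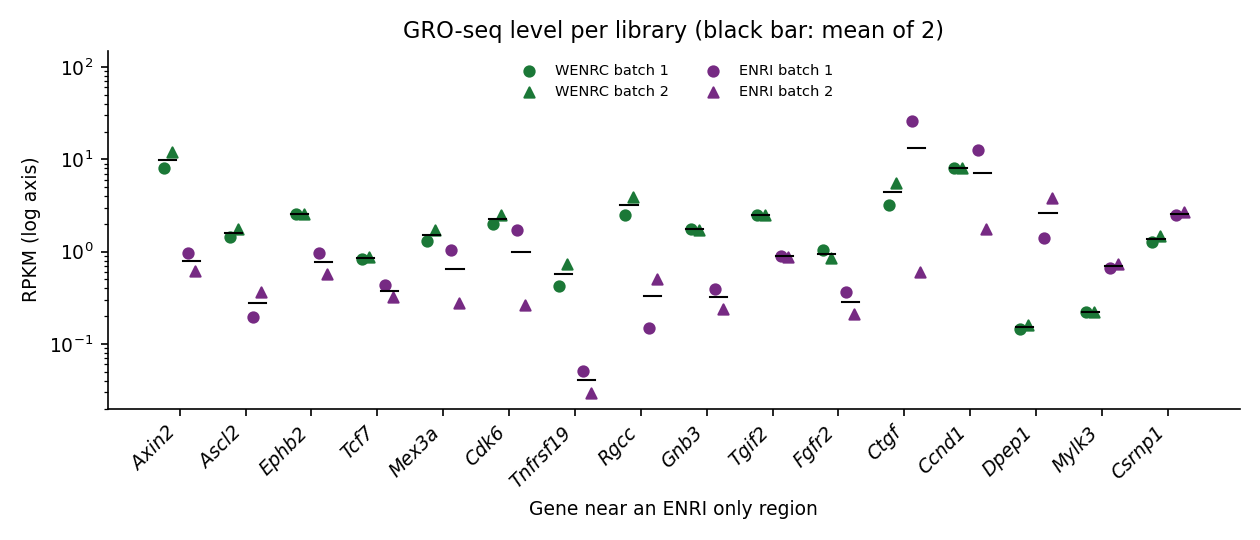
GRO-seq level (RPKM, log axis) of 16 genes near ENRI-only regions in each of the 4 libraries, WENRC in green and ENRI in purple, circles for batch 1 and triangles for batch 2, black bars for the mean of 2 libraries. Axin2 to Fgfr2 are lower in both ENRI libraries, Ctgf and Ccnd1 split by batch, and Dpep1, Mylk3 and Csrnp1 are higher in both.

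Fgfr2 and 3 transcription factors also had both ENRI libraries below both WENRC libraries, as 49.7% of all tested genes did. Fgfr2, a receptor of fibroblast growth factors, had 1.05 and 0.856 RPKM in WENRC against 0.364 and 0.212 in ENRI (log2 change -0.88 ± 0.16, limma adjusted p = 0.0565, edgeR with the block 0.0348), with the region (chr7:137408194-137410476) over the start. Tgif2, a homeobox repressor of TGF-beta targets, had 2.47 and 2.52 against 0.900 and 0.879 (log2 change -1.11 ± 0.12, edgeR with the block adjusted p = 0.0435). Replicates of Tgif2 were within 0.1 RPKM of each other in each medium, far less than the gap between media. Mnx1, a homeobox factor of motor neurons and pancreas, had 0.516 and 0.745 against 0.140 and 0.0546, and Etv4, an ETS factor downstream of FGF signals, 1.90 and 1.63 against 0.906 and 0.464.

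Of 191 homeobox genes in the table, 5 had a region in reach (2.62%), and of 290 other developmental transcription factors 8 had one (2.76%), beside 2% of all genes. The 3 tested homeobox genes (Mnx1, Tgif2 and Tshz2) and 4 tested other factors all had both ENRI libraries below both WENRC libraries (49.7% of all tested genes), with medians of -0.92 and -0.80. Nanog had no read in WENRC and at most 0.0266 RPKM in ENRI. The signalling list held 4 members of 207 (1.93%), of which Axin2, Fgfr2 and Gdf1 were tested with a median of -0.88; Gdf1 shares its transcribed unit and values with Cers1.

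By size of change, Rgcc, a regulator of the cell cycle, followed Axin2, with 2.52 and 3.94 RPKM in WENRC against 0.149 and 0.506 in ENRI (log2 change -2.18 ± 0.31, edgeR with the block adjusted p = 0.0184). Gnb3, a G protein beta subunit, had 1.76 and 1.72 against 0.398 and 0.241, and Crtap, a cartilage-associated protein of collagen hydroxylation, 1.45 and 1.36 against 0.355 and 0.207. Gjb2, the gap junction protein connexin 26, had 2.44 and 2.15 against 0.647 and 0.644. All 4 were called lower by edgeR with the block, as were 2.72% of all tested genes. In all 4 both ENRI libraries lay below both WENRC libraries, as in 49.7% of all tested genes. Cd24a, a surface protein of crypt progenitors, had 10.0 and 13.8 against 4.75 and 2.56, and Cdc42ep1, an effector of the GTPase Cdc42, 10.6 and 12.8 against 5.49 and 3.45; both were called by DESeq2 and neither by edgeR with the block. The other genes that edgeR with the block called lower, named after their values were seen, were Tbx3os2, Car12, Rab15, Mcf2l and Angpt2, all with means under 1 RPKM in WENRC; Tbx3os2 is an antisense transcript, and since the strand setting of the counting is not given, reads of the opposite strand cannot be told apart. Of the 12 called lower, 11 had the start within 1000 bp of the region and 10 had no WENRC region within 10000 bp. Among all 137 tested members, 66 had the start over 1000 bp away and 81 had no WENRC region within 10000 bp.

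A minority was higher in enterocyte medium. Dpep1, a brush border dipeptidase, had 0.144 and 0.160 RPKM in WENRC against 1.42 and 3.83 in ENRI, 17.3-fold higher in the mean (log2 change 2.14 ± 0.42, limma adjusted p = 0.0585, edgeR with the block 0.0159). Its region (chr8:125707777-125709482) scored 33, lay 653 bp upstream of the start and had a WENRC region 3760 bp away. Ier5, an immediate early response gene, had 8.59 and 14.6 against 17.2 and 27.5, Mylk3, a myosin light chain kinase, 0.219 and 0.224 against 0.669 and 0.734, Csrnp1, a nuclear protein induced by Axin1, 1.29 and 1.48 against 2.49 and 2.69, and Proz, protein Z of coagulation, 0.571 and 0.629 against 1.04 and 1.91. These 5 were the members called higher by edgeR with the block (3.65%, beside 5.32% of all tested genes). None had its start inside the region. Only 30 of the 137 tested members did, so a count of 0 among 5 is near that share. Scores were 32 to 33 in 4 of them and 44 at Csrnp1.

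Neurl1b, a ubiquitin ligase of Notch ligands, had 1.43 and 0.886 RPKM in WENRC against 2.40 and 4.32 in ENRI, and Eva1b 0.745 and 0.694 against 1.89 and 2.20; both were called by DESeq2 and neither by edgeR with the block. None of the 46 enterocyte genes had an ENRI-only region in reach, and none of 13 epithelial markers did; with 2% of all genes in reach of a region, counts of 0 in lists of this size are near that share.

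Ctgf and Cyr61, matricellular proteins known as targets of YAP, split by batch: Ctgf had 3.21 and 5.54 RPKM in WENRC against 25.7 and 0.606 in ENRI, and Cyr61 8.44 and 20.6 against 11.2 and 3.72. The media overlapped in both genes and the batches had opposite signs, so no direction can be given.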

How the data were processed

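GRO-seq was deposited as a signal per RefSeq transcript (reads scaled by the authors, build mm9), counted over gene bodies with HOMER per the file headers; each column summed to 20.0M, and all low values (100% within 0.1) were whole multiples of 1 step, from which reads were recovered. The strand setting and coordinate base are not given in the sources used here. RPKM was computed from the authors' scaled reads as reads per kb per column total for the longest transcript of each symbol, and the 4 deposited RPKM columns were not used. The deposited log2 fold changes, p-values and FDR came from edgeR with batch as a term, per the file headers.

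H3K27me3 regions were called by the authors with HOMER (4.3 per the submitters' processing notes) in 1 library per medium: windows of 1000 bp joined up to 10000 bp, an FDR of 0.001 and 4-fold over input and over the local 10000 bp, per the file headers. The deposited score is a tag count and the deposited fold is the ratio of scaled ChIP to input tags; both are the authors' values and only describe the regions.

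A gene entered the test, by limma 3.58.1 in R 4.3.3, when 2 or more libraries reached 0.5 RPKM. The fit used log2 RPKM plus 0.5, with a mean trend and no block. Fold changes on that scale understate the change of low genes. Calls used an adjusted p (Benjamini-Hochberg, over all tested genes) of 0.05. The fitting script was also run on simulated data with large changes, which does not support this threshold for these libraries. edgeR 4.0.16 and DESeq2 1.42.0 on recovered reads, the block, other filters, pseudocounts, scalings and each library left out were alternatives, 76 pairs of a result and an alternative in all, and 14 more were added after seeing the data. A column could be tied to its medium and header batch, not to a mouse. The pairing rests on those batch numbers; deviations of same-batch libraries correlated at 0.0126 across genes. P-values measure the spread between these libraries.

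The members, 16 gene lists and tests were chosen with earlier results of these data known. Genes were named from the 12 regions of highest score, up to 6 per list by score, up to 10 per direction by change (at least 20 reads, same sign in both batches), the 6 of highest level, any passing the test, and those at the thresholds, leaving out clone-like names; the text gives a part, and some named genes are not reported here. Input DNA entered only through the region calls, and total histone H3 was not used here.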

Additional observations from a re-analysis of the deposited data

How the results depend on the processing

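The median log2 change of the genes stayed below 0 under every alternative run. With a single library dropped it ran from -0.33 to -0.75, beside -0.15 to -0.27 over all tested genes. A median below 0 was thus not particular to the members. In those fits the remaining library was taken to vary like the other medium's pair. The median was -0.023 with no filter on low values (-0.015 over all genes) and -0.14 with a filter of 10 recovered reads (-0.09 over all). With the replicate block, limma called 0 members, and 0 of all 11602 tested genes in either direction. Without the block it called 10 lower and 7 higher over all tested genes. The blocked limma fit thus cannot show whether calls of members hold. Regions numbered 674 within 10000 bp of a start, 792 when clear of the broad WENRC list only and 73 at a fold of 6 or more, and, in choices added after seeing the data, 92 at a score of 40 or more, 116 with the start inside and 217 with no WENRC region within 10000 bp.

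Members called lower, 0 in limma, were 1 of 78 with a filter of 1 RPKM (1.28% beside 0.265% of all tested genes). They were 31 of 314 with 10 reads (9.87% beside 5.65%) and 7 of 137 with quantile normalization (5.11% beside 3.64%). Also of 137, 12 were called by edgeR (8.76% beside 2.84%) and 12 by edgeR with the replicate block (8.76% beside 2.72%). DESeq2 called 31 (22.6% beside 8.89%). Members called higher were 3 of 314 with 10 reads (0.96% beside 3.25% of all tested genes). Quantile normalization gave 4 of 137 (2.92% beside 4.37%). Of the same 137, edgeR called 3 (2.19% beside 5.6%), edgeR with the block 5 (3.65% beside 5.32%) and DESeq2 11 (8.03% beside 14.7%). With 1 library left out, lower calls ranged from 0 to 87 and higher calls from 0 to 8, where all tested genes gave 0 to 3985 and 0 to 1809.

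Of 761 pairs of a named gene and an alternative, 12 turned sign, in 4 genes. Ccnd1 had 0.031 with edgeR and 0.042 with DESeq2, and from -1.94 to 0.60 with a library left out, the top without ENRI of batch 2. Chgb ran from -0.58 to 0.66 with a library left out, including -0.50 without ENRI of batch 2. Ctgf had -0.018 with a pseudocount of 0.1, and ran from -2.10, without ENRI of batch 1, to 2.47, including -0.17 without WENRC of batch 1. Epha4 had 0.14 with quantile normalization, 0.062 with edgeR and 0.068 with DESeq2, and from -0.99 to 0.49, the top without ENRI of batch 2. The cause was not tested. With 1 ChIP-seq library per medium, the regions have no replicate check.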

Other observations

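Genes of neuronal signalling and cell contact made up a share of the members. Of 434 ion channel and neurotransmitter receptor genes, 19 (4.38%) had an ENRI-only region in reach, and of 287 genes of axon guidance, Eph signalling and cell adhesion 17 (5.92%) did, beside 2% of all genes. Of these, 14 of 19 and 13 of 17 were below 0.1 RPKM in the mean. Grm3, a glutamate receptor, had at most 0.0270 RPKM in any library. All 5 members of the matrix list were below 0.1 RPKM.

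Among 475 solute carriers and ABC transporters, 13 (2.74%) were members and 3 were tested. Slc25a4, the mitochondrial ADP/ATP carrier, had 2.16 and 2.42 RPKM in WENRC against 2.08 and 1.30 in ENRI, and Slc7a6, an amino acid transporter, 0.919 and 0.943 against 0.618 and 0.282. Of 57 secretory lineage genes, Chgb, Scgn and Spdef were members. Chgb, an enteroendocrine granin, had 1.22 and 3.57 against 1.37 and 3.44, with the region over its start; the spread between batches exceeded the difference between media. Spdef, a factor of goblet and Paneth cells, had 0.526 and 0.432 against 0.315 and 0.454. Of 36 Polycomb and trithorax genes, Cbx6, a PRC1 subunit, and Kmt2a, a histone H3K4 methyltransferase, were members; Cbx6 had 2.96 and 2.31 RPKM against 2.58 and 0.328, and Kmt2a 1.48 and 1.47 against 1.30 and 0.941.

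Of the 344 members below the limit for testing here, the authors' deposited table called 17 lower and 6 higher in ENRI. Over all genes it called 3.06% lower and 5.65% higher. The shares among all untested genes were not counted. Car5a, a mitochondrial carbonic anhydrase, had 0.196 and 0.289 RPKM in WENRC against 0.0215 and 0.0352 in ENRI. Alpk3, an alpha-kinase, had 0.0218 and 0.0383 against 0.388 and 0.937, and C8a, a complement component, 0.000634 and 0.0232 against 0.0656 and 0.174. Media did not overlap in these 3 genes, which were picked after their values were seen. How often that holds among all untested genes was not counted. The starts of Car5a, Alpk3 and C8a lay 3349, 4513 and 474 bp from their regions.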
